A study of Mus musculus with 2 samples.

Results

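Skin exposed to ultraviolet radiation (UVR) was compared with unexposed control skin of the SKH-1 mouse, a hairless strain used in studies of sunlight and skin. The measurement was Visium spatial transcriptomics, in which probes ligated on tissue transcripts are captured at barcoded spots under a section. A spot covers several cells or parts of cells. Both sections lay on 1 capture area, and per the labels the upper held the UVR group and the lower the control group. The section nearer the top of the tissue image was taken as the upper one. The spot grid of the slide runs the opposite way, and reading upper from it exchanges both groups and inverts every ratio given here. All mice were females of 10 to 12 weeks. The UVR group was exposed to UVR and received none of the study's treatments, and the control group was normal skin. The wavelength, dose and number of exposures, the body site and the number of animals are not given in the sources used here. The series held 3175 spots over tissue on 2 capture areas, and 1404 of them were on the area used here. Spots with at least 200 UMIs (unique molecular identifiers, one per captured molecule) were kept, which left 986 spots, 647 in UVR skin and 339 in control skin. With 1 section per group there is no replicate, so no test between groups was possible. Every interval below is an exact 95% interval for counting error only, and a difference between the animals or sections that has nothing to do with UVR cannot be told apart from one that has.

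The epidermis renews itself from a basal layer that divides, expresses Krt5 and Krt14 and is anchored to the dermis. Cells that leave it switch to Krt1 and Krt10, then build the cornified envelope from loricrin, filaggrin and small proline-rich proteins, and shed as dead scale. After wounding or ultraviolet injury, keratinocytes are known to express Krt6, Krt16 and Krt17 in place of part of the suprabasal program, and the epidermis thickens. Ultraviolet photons also damage DNA, which activates p53 and excision repair, and are known to deplete the antigen-presenting Langerhans cells of the epidermis.

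The UVR section was deeper, with 2558616 UMIs in its kept spots (median 1641 per spot) against 326095 (median 527) in the control section. Spots were called epidermal where they held at least 1000 UMIs and Krt5, Krt14 and Lor, the loricrin gene, made up at least 3% of them. This gave 261 UVR spots with 2114788 UMIs (1014 to 33154 per spot, median 6038) and 72 control spots with 168438 UMIs (1041 to 6864, median 1869). Just inside the limit, at 3 to 4%, lay 20 UVR spots and 1 control spot, and just outside it, at 2 to 3%, lay 14 and 5. Epidermal spots made up 40.3% of kept UVR spots and 21.2% of control spots. Without the minimum of 1000 UMIs, 343 kept UVR spots (53%) and 172 control spots (50.7%) reached the 3% share. All 11 keratinocyte markers were detected in both sections, at 13% of UMIs over kept spots of UVR skin and 12.7% in control skin, so both sections held epidermis. The epidermal spots differed in the balance of these genes: 226 of 261 UVR spots, but 12 of 72 control spots, held more Krt5 and Krt14 than Lor. A difference in the layers sampled and one in expression within the same layers cannot be told apart here. Because Krt5, Krt14 and Lor chose the spots, their epidermal values are no result. The maps of keratin shares show the band of epidermal spots broad in UVR skin and much thinner in control skin. This band holds only spots with at least 1000 UMIs, and the control section was shallower, so its width is no measure of epidermal thickness.

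**Figure D1:**
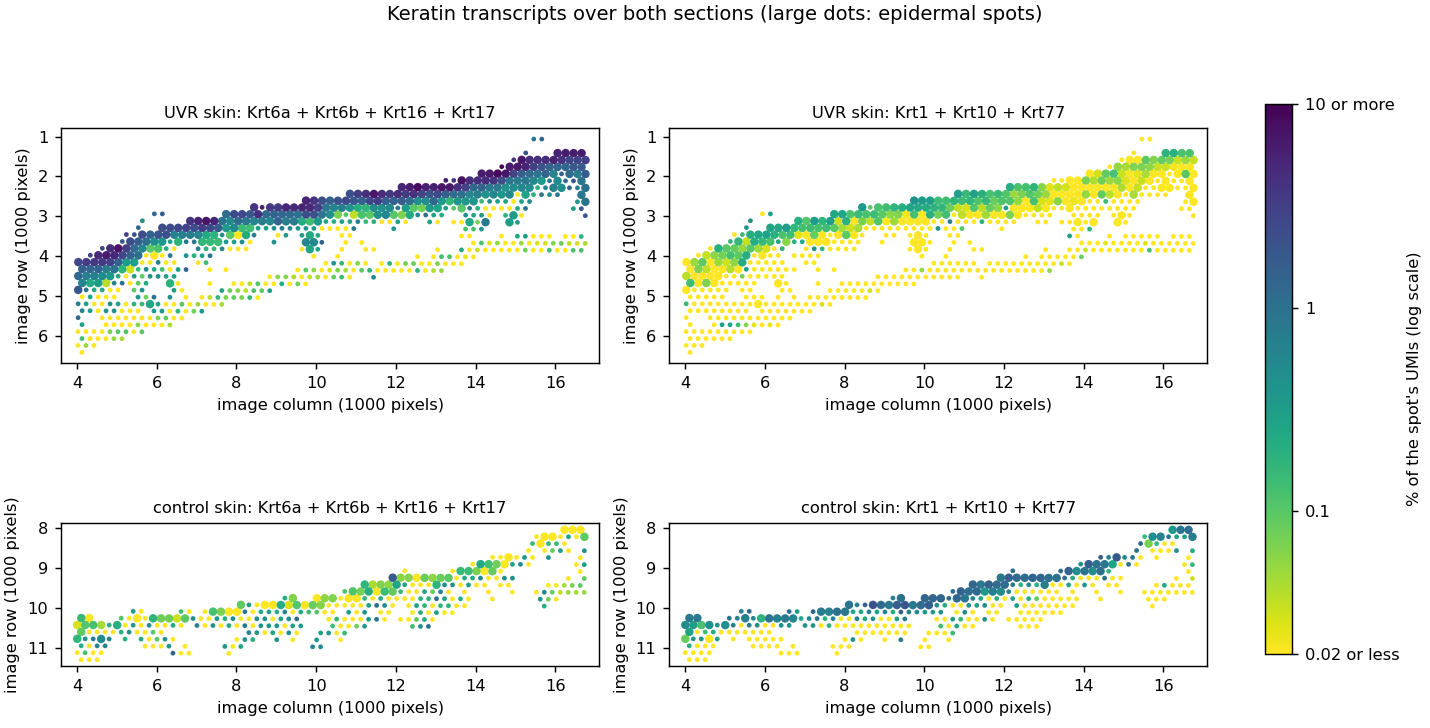
Kept spots of the UVR section (top) and the control section (bottom) at their image positions, in 1000 pixels, coloured on a log scale by the percentage of each spot's UMIs that came from Krt6a, Krt6b, Krt16 and Krt17 (left) or from Krt1, Krt10 and Krt77 (right). Large dots are the 261 UVR and 72 control epidermal spots. The stress keratins are high along the outer edge of UVR skin, where they took 2.75% of all epidermal UMIs against 0.0956% in control skin, and the suprabasal keratins are high along the edge of control skin.

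Each gene's UMIs were added up over the spots of a section and scaled to their total, as CPM. The comparison is the plain ratio of CPM, UVR over control, taken where a gene had 100 UMIs or more in both sections together. In epidermal spots 494 of 2009 genes (24.6%) differed by 2-fold or more, 368 (18.3%) with the higher value in UVR skin and 126 (6.27%) with the lower. Over all kept spots 503 of 2510 genes (20%) did so, 312 (12.4%) higher and 191 (7.61%) lower. Of these, 234 genes were higher in both comparisons, which was 75.0% of the whole-section and 63.6% of the epidermal calls. Lower in both were 78 genes, 40.8% and 61.9% of the calls. The minimum of 100 UMIs is over both sections, and most UMIs came from the deeper UVR section. The balance of directions over all kept spots turned with this minimum. At 20 UMIs 760 genes were higher and 1026 lower of 5897, whereas epidermal spots had 793 higher and 630 lower of 4707. The median gene of the epidermal comparison had a log2 ratio of 0.22, and scaling that median to 0 lowers every epidermal log2 ratio by as much.

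**Figure D2:**
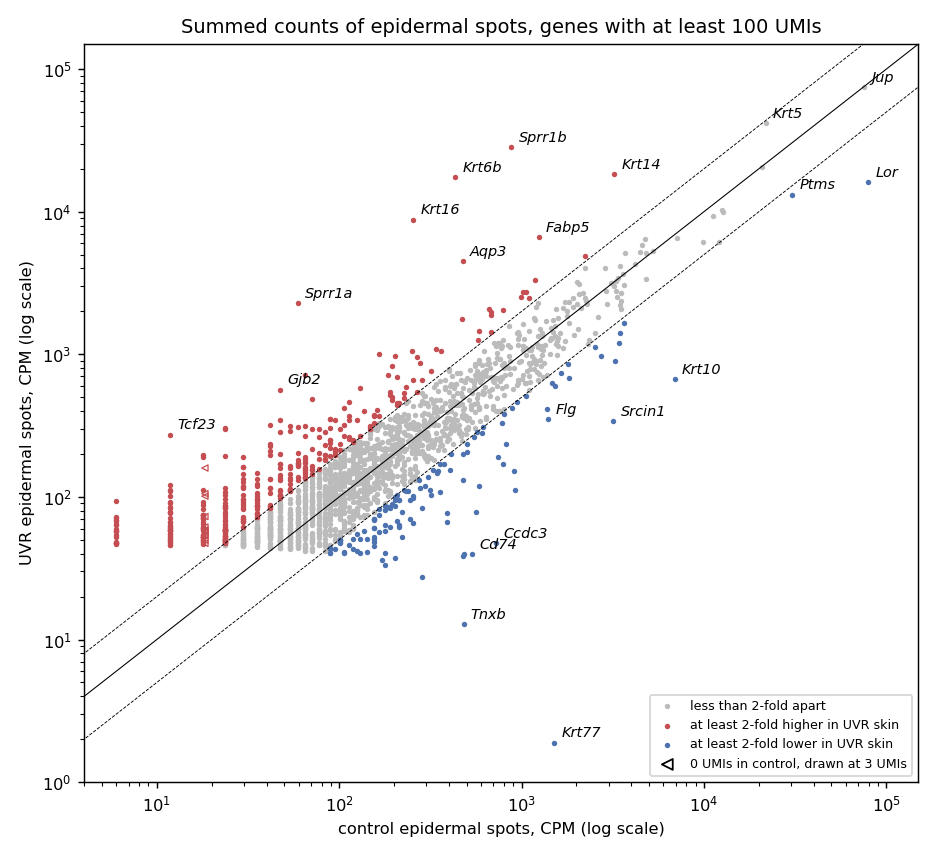
CPM of 2009 genes in the summed epidermal spots of control skin (horizontal, log scale) and UVR skin (vertical, log scale), 1 dot per gene. The solid line marks equal CPM and the dashed lines a 2-fold difference. Krt6b, Krt16, Sprr1a and Sprr1b lie far above the lines and Krt77 and Tnxb far below, while Jup, at about the same CPM in both, lies on the line. Genes with 0 control UMIs are drawn at the floor of 3 UMIs, and Krt5, Krt14 and Lor chose the spots.

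Among the keratins induced by injury, 4 of 5 listed genes reached 20 UMIs over both sections, the minimum for list members. All 4 were at least 1.5-fold higher in UVR epidermal spots with an interval beyond 1, the rule used for lists; 10.9% of all 4707 genes with 20 UMIs met it upward and 10.9% downward. Krt6b (ENSMUSG00000023041, chr15:101676023-101680293; coordinates on GRCm38.p6, the mm10 assembly), a keratin of wound-edge keratinocytes, had 36986 UMIs in UVR and 73 in control skin, or 17489 and 433 CPM. It was 40.4-fold higher (95% interval 32.1 to 51.5). Over single spots its level ran from 0 through a median of 6055 to 61756 CPM in UVR skin and from 0 through a median of 0 to 12314 CPM in control skin. The groups overlapped, since 93 of 261 UVR spots exceeded every control spot. A single control spot set that maximum: it held 24 of the 73 control UMIs of Krt6b, and without it the ratio was 59.4 (44.9 to 80.3) and 199 UVR spots lay above every control spot. Krt16 (ENSMUSG00000053797, chr11:100246091-100248902), the type I partner of Krt6, had 18576 UMIs in UVR and 43 in control skin and was 34.4-fold higher (95% interval 25.5 to 47.6). After each spot was thinned to 1000 UMIs, Krt16 was expected in 86.9% of UVR and 22.4% of control epidermal spots (unthinned 94.3% and 40.3%). Krt17, which is also expressed in hair follicles, was 4.25-fold higher (95% interval 3.14 to 5.92). Krt6a was 10.8-fold higher (95% interval 3.66 to 52.5) on 3 control UMIs, 2 of them in the single spot named above, and the ratio without that spot was 32 (5.7 to 1266). Krt6a and Krt6b are near-identical in sequence, and how the probes separate them is not given in the sources used here.

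**Figure D3:**
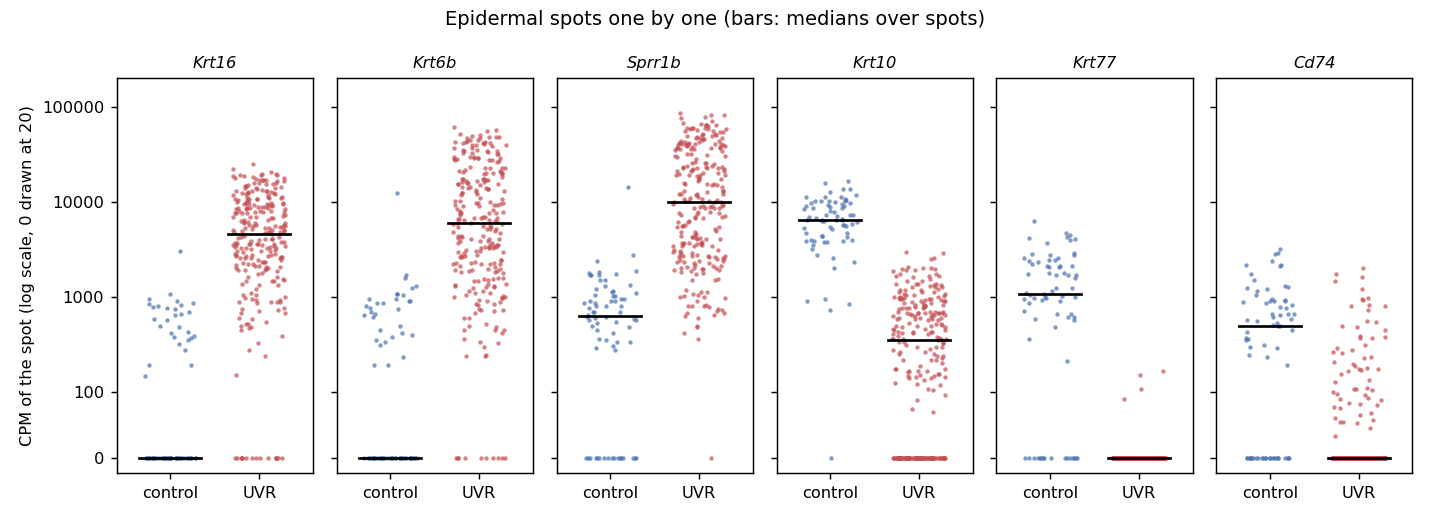
CPM of 6 genes in each of the 72 control and 261 UVR epidermal spots, on a log scale with spots at 0 drawn at 20; 1 dot per spot, and bars are medians over spots. Krt16, Krt6b and Sprr1b are high in most UVR spots and at 0 or low in most control spots, and Krt10, Krt77 and Cd74 show the opposite order. Spots of a section are not replicates.

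The small proline-rich proteins, crosslinked precursors of the cornified envelope, were higher as a group. Of 16 listed genes 12 were in the files and 6 reached 20 UMIs, and 5 of the 6 passed 1.5-fold upward and none downward, although 3 of the 6 had 0 control UMIs, so their ratios are bounds. Sprr1b (ENSMUSG00000048455, chr3:92436808-92438817) took 2.83% of UMIs in UVR epidermal spots and 0.0879% in control spots. It had 59859 UMIs in UVR and 148 in control skin and was 32.2-fold higher (95% interval 27.4 to 38.1). Single spots ran from 0 through a median of 10083 to 85981 CPM in UVR skin and from 0 through 629.7 to 14366 CPM in control skin, so the lower part of the UVR range overlapped the control. Sprr1a (ENSMUSG00000050359, chr3:92483954-92485881) had 4804 UMIs in UVR and 10 in control skin and was 38.3-fold higher (95% interval 20.8 to 79.8). Sprr2h, with 2 control UMIs, was 9.36-fold higher (95% interval 2.56 to 77.7). The pseudogene Sprr2j-ps had 223 UMIs in UVR and 0 in control epidermal spots. Set against the floor of 3 control counts, it was at least 5.92-fold higher. Members of the Sprr2 family are close copies, so counts may be shared among them.

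Both the Sprr genes and the envelope genes Lor and Flg, which were lower (below), lie in the epidermal differentiation complex on chromosome 3. Their promoters are shown because these neighbouring genes went opposite ways in UVR skin. The 250 bases before each start site, from RefSeq on GRCm38.p6, are printed 5′ to 3′ on the gene's strand, with capitals for the AP-1 letters TGANTCA and for TATAAA, which do not overlap; both strands were searched. The windows are Sprr1b at chr3:92438780-92439029, strand -, Sprr1a at chr3:92485882-92486131, strand -, Sprr2h at chr3:92385435-92385684, strand +, Lor at chr3:92083143-92083392, strand -, and Flg at chr3:93273296-93273545, strand +.
Sprr1b: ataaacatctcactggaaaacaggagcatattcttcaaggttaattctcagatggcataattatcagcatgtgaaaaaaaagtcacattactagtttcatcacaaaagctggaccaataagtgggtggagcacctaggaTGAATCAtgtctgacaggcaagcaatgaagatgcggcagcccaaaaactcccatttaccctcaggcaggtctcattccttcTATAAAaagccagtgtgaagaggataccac
Sprr1a: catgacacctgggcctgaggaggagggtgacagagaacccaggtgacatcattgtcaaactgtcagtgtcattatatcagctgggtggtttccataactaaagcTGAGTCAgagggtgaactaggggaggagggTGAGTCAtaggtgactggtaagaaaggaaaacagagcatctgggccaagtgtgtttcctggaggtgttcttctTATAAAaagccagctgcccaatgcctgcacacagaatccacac
Sprr2h: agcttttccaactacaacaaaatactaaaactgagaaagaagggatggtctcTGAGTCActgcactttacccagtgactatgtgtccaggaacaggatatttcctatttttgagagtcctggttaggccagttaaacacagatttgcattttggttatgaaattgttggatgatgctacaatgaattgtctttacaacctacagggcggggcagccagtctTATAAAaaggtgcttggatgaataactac
Lor: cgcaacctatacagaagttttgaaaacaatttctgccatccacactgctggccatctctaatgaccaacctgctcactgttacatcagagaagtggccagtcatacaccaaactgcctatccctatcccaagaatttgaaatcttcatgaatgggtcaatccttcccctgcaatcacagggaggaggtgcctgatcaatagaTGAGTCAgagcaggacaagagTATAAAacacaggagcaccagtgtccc
Flg: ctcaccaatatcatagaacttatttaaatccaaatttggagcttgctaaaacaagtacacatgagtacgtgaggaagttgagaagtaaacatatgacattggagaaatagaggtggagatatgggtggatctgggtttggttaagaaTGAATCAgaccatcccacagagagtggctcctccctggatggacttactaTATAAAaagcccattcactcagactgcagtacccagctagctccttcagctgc
Each of the 5 windows held both kinds of letters. Those of Sprr1a held the AP-1 letters at 2 positions, starting 146 and 116 bases before the start site. The genes that were lower carried the same letters as those that were higher. Over all 32851 windows of this length in the RefSeq table, 6.75% held TGANTCA and 12.4% TATAAA. Among genes compared in epidermal spots, 1571 had a window, and 5.86% and 7.45% of these held the letters. The shares were 4.90% and 11.2% for 286 genes at least 2-fold higher and 10.6% and 14.9% for 94 genes at least 2-fold lower. These are matches of letters, and no binding was measured.

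Keratins of the normal suprabasal layers were lower. Of 5 measured genes, 4 passed 1.5-fold downward and 1 upward (median log2 ratio -2.24). Krt77 (ENSMUSG00000067594, chr15:101858731-101869706), a type II keratin, had 4 UMIs in UVR and 254 in control skin over epidermal spots and was 797-fold lower (95% interval 308 to 2949). It was seen in 4 of 261 UVR spots and 56 of 72 control spots; thinned to 1000 UMIs, the expected shares were 0.193% and 64.6%. Krt10 (ENSMUSG00000019761, chr11:99385254-99397449), the main type I keratin of differentiating cells, had 1413 UMIs in UVR and 1164 in control skin and was 10.3-fold lower (95% interval 9.56 to 11.2). Single spots ran from 0 through 348 to 2996 CPM in UVR skin and from 0 through 6470.5 to 16481 CPM in control skin. The median control spot therefore stood above the highest UVR spot. Krt1, the partner of Krt10, was 2.01-fold lower (95% interval 1.62 to 2.48). The exception was Krt78, a type II keratin of stratified epithelia, which was 2.73-fold higher (95% interval 1.92 to 4.01).

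The cornified envelope split. Of 43 listed genes 23 were measured, and 4 passed upward and 10 downward (median log2 ratio -0.27). This balance depended on the spots compared, in subsets chosen after seeing the data. In epidermal spots richer in Krt5 and Krt14, 3 of 22 passed upward and 3 downward (median -0.67, with 5 at 0 control UMIs). In those richer in Lor, 10 of 20 passed upward and 7 downward (0.24). Among spots of 1000 to 4000 UMIs, 0 of 18 passed upward and 12 downward (-1.79). The share of all genes passing the 1.5-fold rule was not taken in these subsets. By the 2-fold rule at 100 UMIs, 288 of 1814 genes were higher and 172 lower in the first subset. In the second these were 95 and 98 of 539, and in the third 80 and 41 of 545. Over all kept spots, where the choice of epidermal spots plays no part, Lor was 3.53-fold lower (95% interval 3.47 to 3.6), Krt5 2.17-fold higher (95% interval 2.11 to 2.23) and Krt14 6.07-fold higher (95% interval 5.66 to 6.51). Flg, which encodes filaggrin and was chosen after its values were seen, was 3.98-fold lower (95% interval 3.42 to 4.62) in epidermal spots, and the late envelope gene Lce1f was 5.38-fold lower (95% interval 3.39 to 8.36). Tgm1, the transglutaminase that crosslinks the envelope, was 2.76-fold higher (95% interval 2.3 to 3.36). Cdsn, whose product holds corneocytes together, was 2.28-fold higher (95% interval 1.97 to 2.65), and Cnfn, the cornifelin gene, 2.66-fold higher (95% interval 1.47 to 5.37). Crct1, with 21901 UMIs in UVR and 2102 in control skin, differed by less than 1.5-fold and was 1.21-fold lower (95% interval 1.15 to 1.26). Its direction turned in the subsets by Krt5, Krt14 and Lor, chosen after seeing the data. The ratios were 1.59 (1.33 to 1.91) in epidermal spots richer in Krt5 and Krt14 and 2.1 (2.0 to 2.2) in those richer in Lor. In the lipid barrier list, 24 of 32 genes were measured, 1 passed upward and 6 downward (median -0.66). Cyp4f39, needed for the omega-hydroxy ceramides, was 4.76-fold higher (95% interval 2.29 to 11.9), whereas Elovl1, a fatty acid elongase, was 1.68-fold lower (95% interval 1.18 to 2.34). Sptlc2, a subunit of the first enzyme of sphingolipid synthesis, was 1.24-fold higher (95% interval 1.12 to 1.39) and below the 1.5-fold rule. Kallikreins and their inhibitors, which regulate shedding, included 4 of 15 measured genes upward and none downward. Klk6 was 3.39-fold higher (95% interval 1.97 to 6.42). Slpi, a secreted protease inhibitor, had 154 UVR UMIs and 1 control UMI, a ratio of 12.3 (2.17 to 488).

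Genes of cell contacts went both ways. Of 17 measured genes of desmosomes and adherens junctions 4 passed upward and 1 downward, with a median log2 ratio of -0.03. The desmosomal cadherins Dsg1b and Dsg3 had ratios of 3.87 (2.25 to 7.31) and 3.84 (1.48 to 14.2), and the plakophilin Pkp3 2.86 (2.02 to 4.21). Jup, which encodes plakoglobin, had 74335 and 75755 CPM, a ratio of 0.981 (0.964 to 0.999), and Dsp, desmoplakin, a ratio of 0.915 (0.711 to 1.2). Ctnna1, alpha-catenin of adherens junctions, was 2.26-fold lower (95% interval 1.5 to 3.3). Among tight junction proteins and connexins 2 of 13 passed upward and 5 downward. Gjb2, the connexin 26 gene, was 11.9-fold higher (95% interval 6.02 to 27.6), and after thinning was expected in 32.1% of UVR and 3.77% of control epidermal spots. The scaffold gene Tjp3 was 2.2-fold lower (95% interval 1.66 to 2.89). Of 15 genes of hemidesmosomes and basement membrane none passed upward and 2 downward. Col17a1, a collagen that anchors basal cells, was 2.03-fold lower (95% interval 1.4 to 2.87), but not in the right side of the image, where its log2 ratio was 0.0856. The integrin Itgb4, its partner there, had a ratio of 1.61 (0.885 to 3.28).

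Genes of DNA replication and division passed upward in part, and the summed replication counts went both ways between subsets of epidermal spots. Of 40 listed replication genes 19 were measured; 7 passed upward and none downward (median log2 ratio 0.90, with 5 of 19 at 0 control UMIs). The helicase subunits Mcm2 and Mcm3 had ratios of 2.6 (1.92 to 3.6) and 1.98 (1.44 to 2.79), and Ticrr, a regulator of replication origins, 6.44 (2.74 to 19.9). Of 11 measured mitosis genes 3 passed upward and none downward: Cenpa, the centromere histone, at 3.08 (1.96 to 5.14), Cenpm at 4.58 (1.76 to 17) and Ube2c, an enzyme of mitotic exit, at 2.82 (1.56 to 5.69). These ratios depended on which epidermal spots were compared. In spots richer in Krt5 and Krt14 than in Lor the summed replication counts had a ratio of 1.13 (0.91 to 1.42) and the mitosis counts 1.68 (1.03 to 2.94). In spots richer in Lor the values were 0.603 (0.508 to 0.718) and 1.21 (0.844 to 1.76), and among spots of 1000 to 4000 UMIs 2.15 (1.87 to 2.48) and 3.52 (2.56 to 4.96). In the same order Mcm2 had 1.25 (0.767 to 2.19), 0.784 (0.474 to 1.32) and 3.01 (2.03 to 4.61), and Mcm3 1.55 (0.815 to 3.41), 0.722 (0.444 to 1.19) and 2.77 (1.81 to 4.41). Only 12 control spots were richer in Krt5 and Krt14. Ccnd1, cyclin D1 of the G1 phase, was 4.23-fold higher (95% interval 2.13 to 9.86), and Cdkn2b, an inhibitor of its kinase, was 3.5-fold lower (95% interval 2.88 to 4.24).

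Of 15 measured p53 targets 5 passed upward and 1 downward (median log2 ratio 0.85). Phlda3, an inhibitor of Akt signalling, was 2.55-fold higher (95% interval 1.85 to 3.6). Aen, an exonuclease of apoptosis, and Zmat3, an RNA-binding protein, had ratios of 3.01 (1.89 to 5.11) and 3.22 (1.36 to 10.0). Cdkn1a, the p21 cell-cycle inhibitor, had 13537 UMIs in UVR and 804 in control skin and a ratio of 1.34 (1.25 to 1.44), under 1.5-fold. It was detected in 259 of 261 UVR and all 72 control epidermal spots. Mdm2, the p53 ligase, had a ratio of 1.03 (0.661 to 1.69). Bbc3, which encodes the death factor PUMA, was 2.06-fold lower (95% interval 1.35 to 3.04). Nucleotide excision repair, the pathway that removes ultraviolet photoproducts, had 2 of 9 measured genes upward and 1 downward (median 0.06). The helicase gene Ercc2 was 2.22-fold higher (95% interval 1.22 to 4.49), and Ercc4, a subunit of the incision nuclease, was 1.58-fold lower (95% interval 1.32 to 1.87). In epidermal spots richer in Lor, a subset chosen after seeing the data, the log2 ratio of Ercc2 was -0.0219.

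Defence against oxidants had 6 of 18 measured genes upward and 2 downward. Txn1, thioredoxin, had a ratio of 3.91 (2.74 to 5.77) in epidermal spots, Gpx1, a glutathione peroxidase, 2.8 (2.43 to 3.24), Gsto1, a glutathione transferase, 3.43 (2.06 to 6.16) and the metallothionein Mt1 2.22 (2.0 to 2.47). The log2 ratio of Mt1 turned to -0.33 in spots richer in Lor. Fth1, the ferritin heavy chain, was 1.49-fold lower (95% interval 1.37 to 1.62). In glycolysis 4 of 14 genes passed upward and none downward. The glucose transporter Slc2a1 was 2.56-fold higher (95% interval 2.19 to 3.0), the hexokinase Hk2 5.44-fold higher (95% interval 2.62 to 13.6) and Pgam1, phosphoglycerate mutase, 2.6-fold higher (95% interval 2.23 to 3.03). Of 34 measured respiratory chain genes 2 passed upward and none downward, with a median of 0.05.

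Both measured aquaporins were higher. Aqp3 (ENSMUSG00000028435, chr4:41092724-41098183), which carries water and glycerol in basal keratinocytes, had 9550 UMIs in UVR and 80 in control skin and was 9.51-fold higher (95% interval 7.63 to 12). Aqp5, a water channel of glands, had 337 UVR UMIs and 0 control UMIs and was at least 8.95-fold higher against the floor. In the retinoid pathway 5 of 13 genes passed upward and 3 downward. The fatty acid and retinoid carriers Fabp5 and Crabp2 had ratios of 5.33 (4.65 to 6.14) and 2.91 (2.42 to 3.54). Rarg, the main retinoic acid receptor of epidermis, was 1.6-fold lower (95% interval 1.38 to 1.86). Of 10 measured genes of lipoxygenases and prostaglandin synthesis 4 passed upward and 1 downward. Alox12e, an epidermal lipoxygenase, was 2.78-fold higher (95% interval 1.49 to 5.85) and Ptges, a prostaglandin E synthase, 2.19-fold higher (95% interval 1.29 to 4.04). Pla2g2f, a secreted phospholipase of suprabasal cells, was 5.4-fold lower (95% interval 3.5 to 8.17).

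Of 8 measured ligands and receptors of the EGF receptor family 3 passed upward and none downward. The ligands Areg and Ereg, amphiregulin and epiregulin, had ratios of 3.9 (1.65 to 12.1) and 2.87 (1.44 to 6.71), and the receptor gene Erbb3 1.21 (0.958 to 1.55). Among spots of 1000 to 4000 UMIs, with 9 and 7 UMIs, Ereg had 0.73 (0.242 to 2.31). Immediate-early and AP-1 genes split evenly, with 4 of 16 upward and 4 downward. Fosl2, an AP-1 subunit, was 5.21-fold higher (95% interval 2.81 to 10.9) and the small Maf factor Maff 2.81-fold higher (95% interval 1.69 to 5.06), while Fos was 1.73-fold lower (95% interval 1.39 to 2.14), Jun 2.08-fold lower (95% interval 1.49 to 2.85) and Jund 2.58-fold lower (95% interval 1.82 to 3.6). Jun had a log2 ratio of 0.0583 in spots richer in Lor. Of 28 measured epidermal transcription factors 10 passed upward and 4 downward (median log2 ratio 0.53). Tcf23 (ENSMUSG00000006642, chr5:30968602-30988062), a helix-loop-helix factor, was found in 126 of 261 UVR and 2 of 72 control epidermal spots, with 579 and 2 UMIs, a ratio of 23.1 (6.35 to 191). The differentiation factor Cebpb was 1.59-fold higher (95% interval 1.43 to 1.78) and the homeodomain protein Hopx 1.81-fold higher (95% interval 1.57 to 2.1). Gata3, a factor of barrier formation, was 1.95-fold lower (95% interval 1.75 to 2.17), and the Notch ligand Dll1 2.47-fold lower (95% interval 1.79 to 3.36). Among TGF-beta, Wnt and senescence genes 4 of 17 passed upward and 5 downward. Wnt3, an epidermal Wnt ligand, was 5.84-fold lower (95% interval 4.29 to 7.87), and Wnt5a, a non-canonical ligand, 1.69-fold higher (95% interval 1.18 to 2.51).

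Antigen presentation on class II was lower. All 5 measured genes passed downward (median log2 ratio -2.68), together 0.0150% of UVR and 0.106% of control epidermal UMIs. Cd74 (ENSMUSG00000024610, chr18:60803849-60812652), the invariant chain, had 84 UMIs in UVR and 90 in control skin and was 13.5-fold lower (95% interval 9.88 to 18.3). It was seen in 63 of 261 UVR and 48 of 72 control spots, in spite of the greater depth of UVR spots. H2-Ab1, a class II beta chain, was 4.19-fold lower (95% interval 2.8 to 6.12). The difference was not limited to epidermal spots. In the other kept spots Cd74 was 5.05-fold lower (95% interval 3.86 to 6.64) and H2-Ab1 5.19-fold lower (95% interval 2.89 to 9.6). Over all kept spots all 6 measured class II genes and 6 of 7 macrophage and dendritic markers passed downward, against 16.8% of all genes. Class II genes are also Langerhans cell markers. Of the 9 markers of these cells on the list 5 reached 20 UMIs, and 4 passed downward and none upward. Cd74, H2-Ab1 and H2-Eb1 among them are class II genes, so this list in large part repeats the class II result. Outside class II, Epcam had 46 UMIs in UVR and 19 in control skin and passed downward. Cd24a, with 83 and 7 UMIs, did not pass (log2 ratio -0.08). The summed share of all 9 markers was 0.0183% in UVR and 0.108% in control epidermal spots, and ran from 0 to 0.22% and from 0 to 0.553% over single spots. No marker was at 0 in either group, but Cd207, the defining marker langerin, had only 2 UMIs in each. In such sections, fewer cells of a type and less RNA per cell cannot be told apart. Class I presentation had 4 of 9 genes downward and none upward. B2m, the shared light chain, was 4.79-fold lower (95% interval 3.01 to 7.44), and Tapbp, which loads peptide, 1.84-fold lower (95% interval 1.58 to 2.14). The class I heavy chain H2-D1 was 1.33-fold lower (95% interval 1.02 to 1.71), under the 1.5-fold rule.

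Inflammatory cytokines were sparse: 5 of 42 listed genes reached 20 UMIs in epidermal spots, and 1 passed upward and 2 downward. Il1f5, an inhibitor of interleukin-36 signalling, was 1.83-fold higher (95% interval 1.41 to 2.41). Of 4 measured interferon response genes Ifi35 alone passed, 3.97-fold higher (95% interval 1.68 to 12.3). Of 7 measured alarmins Stfa3, a stefin, passed upward at 2.9 (1.22 to 9.04), whereas S100a14 had a ratio of 1.0 (0.898 to 1.12). Neutrophil markers had 30 UMIs in UVR epidermal spots, 16 of them S100a9, and 0 in control spots, where 0 counts allow up to 17.8 CPM. The UVR value of these markers, 14.2 CPM, was under that limit, so a difference was not detectable at this depth. T cell markers took 0.00128% and 0.00475% of epidermal UMIs, and macrophage and dendritic markers 0.00340% and 0.00891%.

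Matrix genes of the dermis were lower over the whole section. Of 10 measured collagens none passed upward and 7 downward (median log2 ratio -1.69), and of 17 other matrix genes none passed upward and 11 downward. For comparison, 9.68% of 5897 genes passed upward and 16.8% downward over kept spots. Col1a2, a chain of type I collagen, had 752 UMIs in UVR and 341 in control skin and was 3.56-fold lower (95% interval 3.12 to 4.05). Col16a1 was 3.03-fold lower (95% interval 2.4 to 3.8). Tnxb (ENSMUSG00000033327, chr17:34660453-34719815), tenascin-X of the collagen network, was 11.5-fold lower (95% interval 9.42 to 14), and in epidermal spots 37.7-fold lower (95% interval 24.1 to 60.6). Fibroblast markers took 0.0500% of UMIs in UVR and 0.196% in control skin, with Pdgfra and Fbln1 at 0 in control skin. Single spots ran from 0 to 4.04% and from 0 to 2.84%. The sections were made up differently, with epidermal spots giving 82.7% of UVR and 51.7% of control UMIs. In kept spots outside the epidermis, 386 in UVR and 267 in control skin, Col1a2 was 1.88-fold lower (95% interval 1.62 to 2.17) and Tnxb 3.32-fold lower (95% interval 2.64 to 4.16). Within epidermal spots the matrix lists were mixed. Of 8 measured collagens 1 passed upward and 3 downward (median log2 ratio -0.62). Of 9 other matrix genes 2 passed upward and 3 downward (0.01), against 10.9% of all genes each way.

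The lowest ratios over the whole section also included Paqr7, a membrane progestin receptor, 29.2-fold lower (95% interval 22.7 to 38.1), Fa2h, a fatty acid hydroxylase of sebaceous glands and epidermis, 12.1-fold lower (95% interval 9.85 to 14.9), and Mgll, monoglyceride lipase, 8.24-fold lower (95% interval 6.37 to 10.7). The list of sebaceous gland markers, which holds Fa2h itself, was lower too. Of its 463 control UMIs, Fa2h gave 32 in epidermal and 210 in other kept spots, so the list in part repeats Fa2h. Of 6 measured members 4 passed downward and none upward. The list took 0.0207% of UMIs in UVR and 0.142% in control skin (0 to 1.72% and 0 to 3.65% over spots), with Awat2 at 0 in control skin. Hair follicle markers took 0.00618% and 0.0632%, with 9 of 15 at 0 in UVR and 5 in control skin. Their part in these results was not tested. In epidermal spots other low genes were Ccdc3, a secreted protein, 15.3-fold lower (95% interval 11.7 to 20.2), the tubulin Tuba1a 12.1-fold lower (95% interval 8.81 to 16.6), and Syngr1, a vesicle protein, 12.2-fold lower (95% interval 8.89 to 16.9). Srcin1, an inhibitor of Src kinase chosen after its values were seen, was 9.35-fold lower (95% interval 8.35 to 10.5). Among the highest were Cotl1, an actin-binding protein, with 198 UVR UMIs and 1 control UMI and a ratio of 15.8 (2.8 to 626), and Smim3, a small membrane protein, 12.6-fold higher (95% interval 4.89 to 46.3). The unnamed gene 2310046K23Rik was 12.8-fold higher (95% interval 4.99 to 47.3).

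Lists of general cell functions had median log2 ratios between 0.03 and 0.47 in epidermal spots. Of these, the proteasome list had 2 of 20 genes upward and 1 downward. Of 18 endoplasmic reticulum chaperones and stress genes 3 passed upward and none downward, with Hspa5, the chaperone BiP, 2.38-fold higher (95% interval 1.82 to 3.19). Of 7 cytosolic heat shock genes none passed upward and 1 downward, and of 24 translation genes 3 passed upward and 3 downward. Eef1a1, the elongation factor, was 2.17-fold lower (95% interval 1.74 to 2.68). In the actin list 3 of 22 passed upward and 3 downward. Cfl1, cofilin, was 1.85-fold higher (95% interval 1.61 to 2.14), whereas the actin-sequestering Tmsb4x was 2.36-fold lower (95% interval 1.95 to 2.85). Cfl1 had a log2 ratio of -0.11 in spots richer in Lor.

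**Figure D4:**
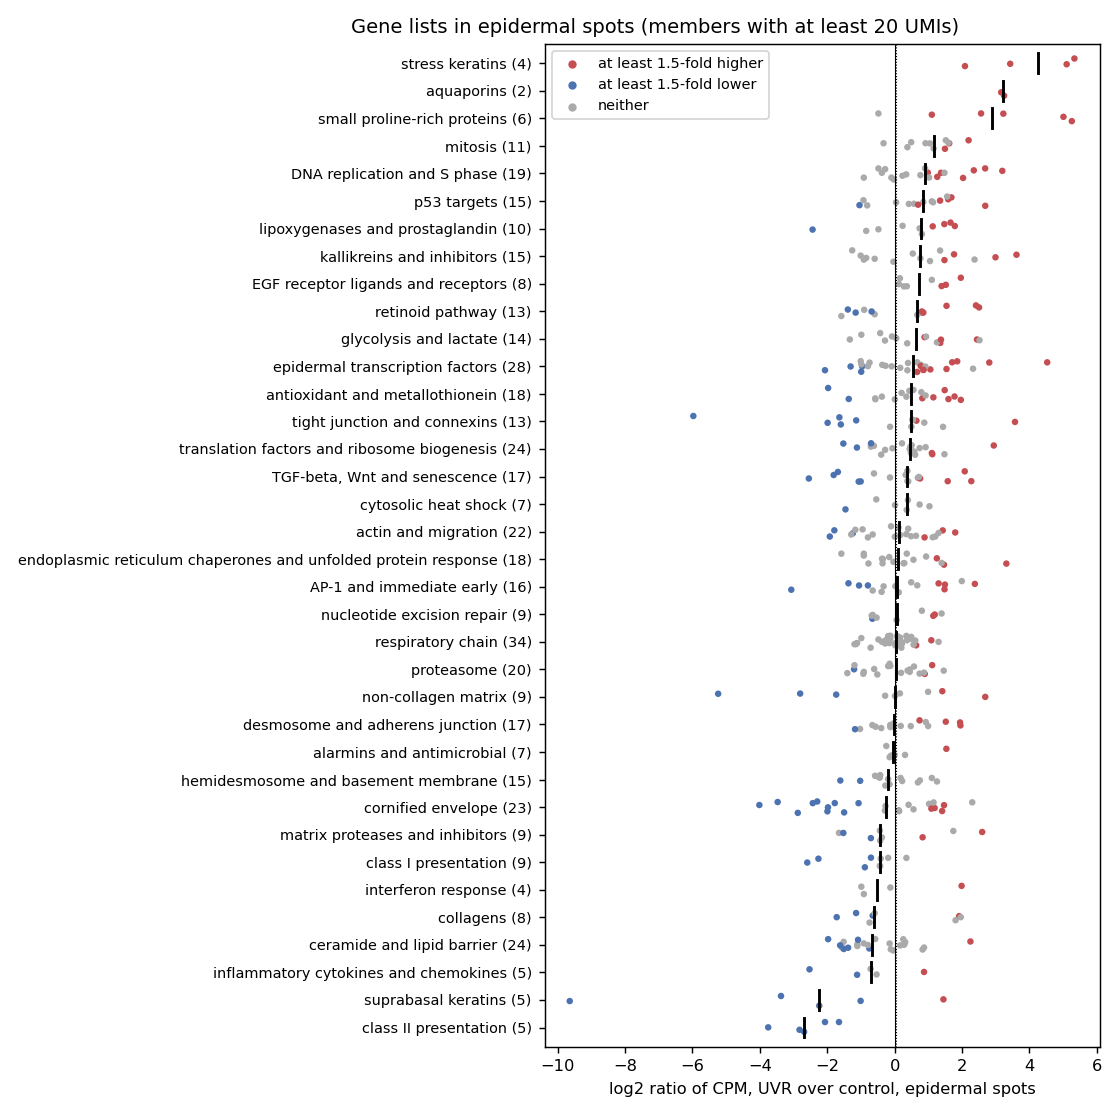
Log2 ratio of CPM, UVR over control, in epidermal spots for the members of 36 gene lists with at least 20 UMIs over both sections (number in brackets), 1 dot per gene. Red and blue dots passed 1.5-fold with an interval beyond 1, bars are list medians, the solid line is 0 and the dotted line the median of all 4707 genes, 0.05. Stress keratins have the highest median, 4.27, and class II presentation the lowest, -2.68. Members with 0 UMIs in a group are drawn at their bound.

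The leading differences were then read in subsets of the epidermal spots, chosen after seeing the data. In the subset richer in Krt5 and Krt14, with 226 UVR and 12 control spots, Krt6b had a ratio of 12.5 (8.92 to 18.2). In the subset richer in Lor, with 35 and 59 spots, it had 112 (82 to 158), and among spots of 1000 to 4000 UMIs, 99 and 64 in number, 14.9 (11.5 to 19.5). Sprr1b had ratios of 14.9 (11.1 to 20.4), 69.6 (57.3 to 85.4) and 10.3 (8.5 to 12.5) in the same order. Both genes thus had ratios above 10 in each subset, largest in the subset richer in Lor. Krt17 had 1.25 (0.833 to 1.98) in the subset richer in Krt5 and Krt14 and 7.36 (4.63 to 12.4) in that richer in Lor, and 2.52 (1.73 to 3.78) among spots of 1000 to 4000 UMIs. Krt10 was lower in all 3 subsets, by 6.62 (5.37 to 8.1), 6.31 (5.57 to 7.16) and 21.5 (17 to 27.7), and Cd74 by 12 (6.3 to 21.4), 30.5 (12.5 to 96.5) and 4.46 (2.89 to 7.05). Flg was lower by 3.56 (2.23 to 5.41), 1.41 (1.17 to 1.68) and 10.4 (7.02 to 16.1). Slc2a1 had 2.55 (1.77 to 3.81), 1.22 (0.997 to 1.5) and 2.59 (2.14 to 3.15). Cdkn1a had 1.31 (1.1 to 1.57), 1.45 (1.33 to 1.58) and 0.883 (0.797 to 0.979), and Phlda3 2.03 (1.03 to 4.73), 2.26 (1.52 to 3.44) and 2.02 (1.29 to 3.29). Spots of 1000 to 4000 UMIs had medians of 2063 UMIs in UVR and 1712.5 in control skin. Several lists with a median above 0 over all epidermal spots were below 0 in the subset richer in Krt5 and Krt14, which held 26947 control UMIs. There the median log2 ratio was -0.52 for replication, -0.96 for mitosis, -0.18 for p53 targets, -0.70 for glycolysis, -0.54 for defence against oxidants and -0.32 for epidermal transcription factors. The retinoid and lipoxygenase lists stood at -1.37 and -0.84. Of these lists' members, 8 of 18, 3 of 11, 5 of 15, 6 of 14, 6 of 18, 8 of 28, 4 of 12 and 2 of 7 had 0 control UMIs and were set at their bound. Such a bound is a lower limit that can itself fall below 0, so these medians are lower limits too. In the same order 1, 1, 3, 4, 4, 4, 2 and 0 members passed upward. The counts downward were 0, 0, 0, 0, 0, 2, 2 and 0. Of all 1814 genes with 100 UMIs there, 288 were at least 2-fold higher and 172 lower. Summed counts of p53 targets had a ratio of 1.43 (1.23 to 1.68) there.

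**Figure D5:**
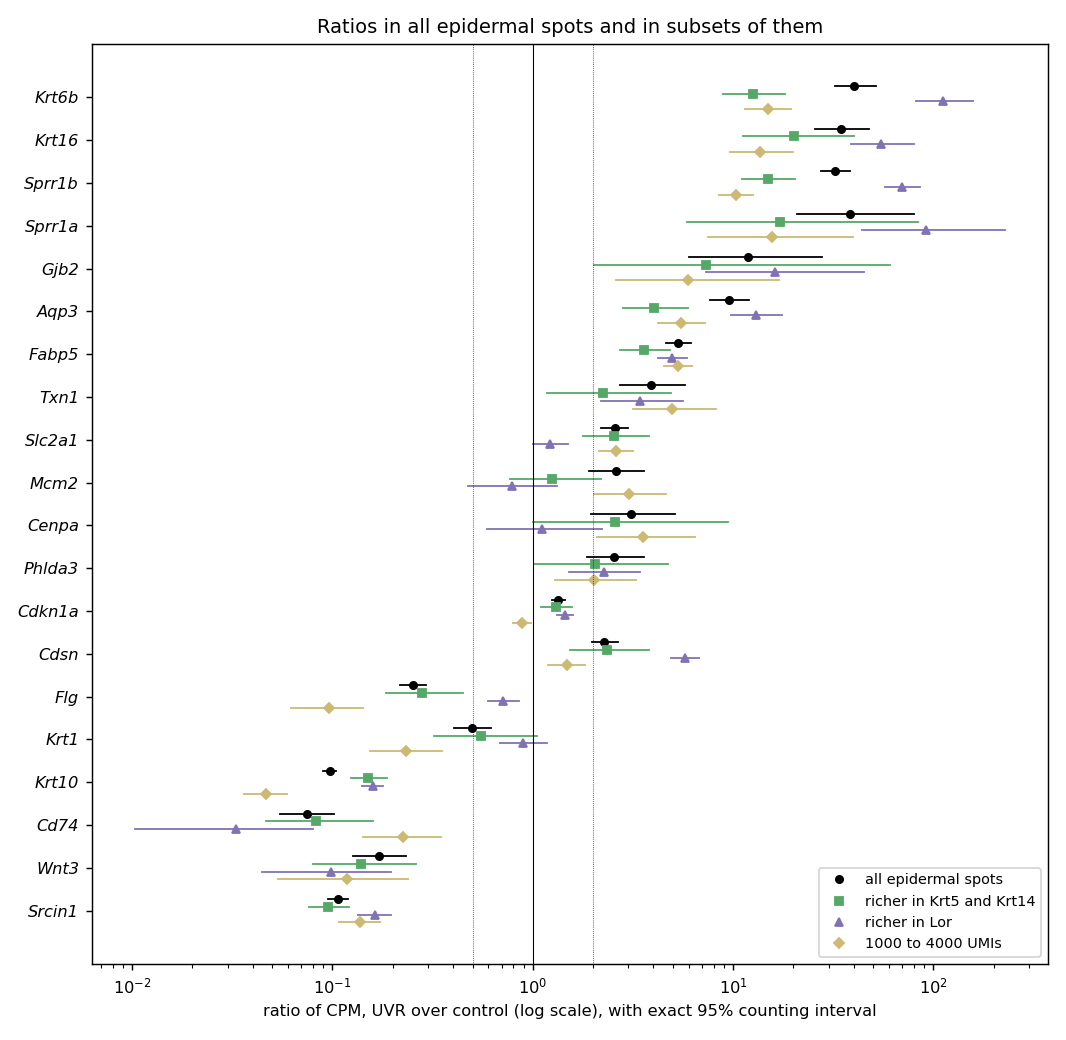
Ratio of CPM, UVR over control, on a log scale for 20 genes in all epidermal spots and in the 3 subsets, with exact 95% intervals for counting error. The solid line is a ratio of 1 and the dotted lines a 2-fold difference. Krt6b, Krt16, Sprr1a and Sprr1b lie right of the 2-fold line in every subset and Krt10, Cd74, Wnt3 and Srcin1 left of it in every subset, while Mcm2 and Cenpa come near 1 in spots richer in Lor.

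Outside the epidermal spots the CPM ratios of the stress genes were nearer to 1. In the 386 UVR and 267 control kept spots that were not epidermal, Krt6b had 426 UMIs in UVR and 110 in control skin and a ratio of 1.38 (1.11 to 1.71), Krt16 1.47 (1.06 to 2.05), Sprr1b 1.2 (1.01 to 1.43) and Krt17 0.56 (0.413 to 0.765). In control skin 110 of 183 Krt6b UMIs were found there, against 426 of 37412 in UVR skin. Krt10 was 16.9-fold lower (95% interval 11.8 to 24.9) and Lor 13-fold lower (95% interval 11.8 to 14.4) in these spots, which include epidermal tissue under 1000 UMIs. Of other keratinocyte markers, Jup had a ratio of 0.337 (0.324 to 0.351), Krt5 0.632 (0.595 to 0.671) and Krt14 0.856 (0.745 to 0.985) there. Keratinocyte transcripts thus took unlike shares of these spots in both sections, and the ratios of the stress genes are not scaled for this. Hk2 and the tropomyosin Tpm2 were 3.69-fold higher (95% interval 2.09 to 7.11) and 4.96-fold higher (95% interval 4.27 to 5.78) there. Over all kept spots skeletal muscle markers took 3.65% of UVR and 4.50% of control UMIs. They had 93415 UMIs in UVR and 14680 in control skin, of which 1719 and 220 were in epidermal spots. The spots outside held 443828 and 157657 UMIs in all, so the muscle share there was higher in UVR skin. Its part in both ratios was not tested.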

How the data were processed

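The deposited matrix holds raw UMI counts per gene and spot, listed for spots over tissue only, per the file headers and values. The submitters' processing notes name Space Ranger 2.0.0, the mm10 build and Seurat 4.1.0; only raw counts were used. The labels' protocols describe a probe-based kit for fixed tissue applied to fresh-frozen sections, so only genes with probes are counted, and the counts rest on probe binding. Of 19465 gene rows, 11 repeated a symbol and were summed; 19095 of 19454 symbols matched the RefSeq table of GRCm38.p6. Of the position barcodes, 430 also occurred on the area not analysed here.

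Sections were split at image row 7200, where the tissue leaves a gap from row 6415 to row 8035. Ratios of summed UMIs carry Clopper-Pearson 95% intervals, since a gene's UMIs divide between both sections binomially. Where a section had none, 3 counts stood in for it, which is 1.17 CPM in UVR and 9.20 in control skin, and 1.42 and 17.8 CPM in epidermal spots. Gene lists were compared by counts and medians of members with 20 UMIs. There are no p-values, and spots never served as replicates. Shares of spots after thinning are hypergeometric expectations at 1000 UMIs.

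The members, the 36 gene lists and the 16 marker lists were chosen with earlier results of these data known. Named genes are the 8 highest and 8 lowest ratios in each comparison that keep their direction across image sides (at least 200 UMIs over kept spots, 100 in epidermal spots), plus the most counted and the extreme members of each list. Flg, Srcin1, Krt5, Krt14 and the subsets of spots were chosen after seeing the data. The scripts, tested on simulated counts, used scipy 1.17.1, numpy 2.4.6, pandas 2.3.3 and matplotlib 3.10.9 under Python 3.11.15. Alternatives covered scaling, gene and spot minimums, a pseudocount of 1 CPM, image sides, the choice of epidermal spots and the reading of upper. Some results that the rule for named genes covers are not reported here.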

Additional observations from a re-analysis of the deposited data

Results flagged for a closer look

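Spots under 200 UMIs entered no value of the report, only the alternative with a minimum of 50 UMIs. The 292 UVR and 126 control spots of this kind held 28119 and 15747 UMIs. In them Krt6b was 2.45-fold higher in UVR skin (95% interval 1.41 to 4.52; 70 and 16 UMIs), Krt16 2.46-fold higher (1.22 to 5.49; 44 and 10 UMIs) and Sprr1b 1.44-fold higher (1.01 to 2.07; 118 and 46 UMIs). These intervals cover counting error only and lie above 1, in data outside the main comparisons. In the same spots Myh4, a myosin of skeletal muscle, was 2.61-fold higher (2.01 to 3.44), so it differed as much as Krt6b, and Lor had a ratio of 0.28 (0.214 to 0.364) and Krt10 of 0.147 (0.043 to 0.408). In control skin Krt6b stood at 1016 CPM in these sparse spots and 433 CPM in epidermal spots.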

How the results depend on the processing

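Counts of genes past 2-fold moved with the filter, and over kept spots the direction with more genes turned too. Over kept spots a minimum of 20 UMIs gave 760 higher and 1026 lower of 5897 genes, a minimum of 500 gave 98 and 36 of 843, and no minimum with a pseudocount of 1 CPM gave 2165 and 3362 of 13017. In epidermal spots the same settings gave 793 and 630 of 4707, 96 and 31 of 664, and 3189 and 2517 of 11740. The left image side gave 172 higher and 96 lower genes over kept spots (1450 compared) and 164 and 52 in epidermal spots (1120 compared). Reading upper from the spot grid exchanges the groups, with 191 higher and 312 lower over kept spots and 126 and 368 in epidermal spots; single genes and lists invert exactly and were not listed again. Median-ratio scaling gave 197 lower genes in epidermal spots. Epidermal spots of 1000 to 4000 UMIs gave 80 higher and 41 lower of 545 genes, those richer in Lor 95 higher and 98 lower of 539, and those richer in Krt5 and Krt14 288 and 172 of 1814.

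For named genes, 1526 of 1867 epidermal and 1003 of 1110 whole-section values under an alternative lay within the counting interval of the reported value, and 42 and 11 had the opposite sign. Sign changes of genes past 2-fold, or past 1.5-fold with an interval beyond 1, follow as log2 ratios. Col17a1 changed on the right image side (0.0856 in epidermal, 0.021 in all kept spots). In epidermal spots richer in Lor, Mcm2 (-0.35), Mcm3 (-0.47), Mt1 (-0.33), Ercc2 (-0.0219), Cfl1 (-0.11) and Jun (0.0583) changed. Krt5 (-0.33) changed there too, but it helps to choose these spots, so its value is no result. In epidermal spots of 1000 to 4000 UMIs Fa2h (1.15), Mgll (0.96) and Col1a2 (1.24) changed, and Col1a2 also with a minimum of 2000 UMIs (0.019) and equal weight of spots (0.11).

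Of list medians, 111 of 574 epidermal and 25 of 346 whole-section values had the opposite sign. Medians of at least 1.5-fold turned for replication (-0.52), mitosis (-0.96), p53 targets (-0.18), the retinoid pathway (-1.37), lipoxygenases (-0.84) and glycolysis (-0.70) in spots richer in Krt5 and Krt14, and for replication (-0.73) and inflammatory genes (0.20) in those richer in Lor. In spots richer in Krt5 and Krt14, some members had 0 control UMIs and stood at their bound, a lower limit that can itself fall below 0. Of replication, mitosis, p53, glycolysis and lipoxygenase genes there, 1, 1, 3, 4 and 0 passed upward and 0 downward. Of retinoid genes 2 passed each way. In spots of 1000 to 4000 UMIs the lipid barrier (0.13), inflammatory (0.062) and collagen (1.24) medians turned. The retinoid median turned on the left side (-0.12) and with a minimum of 2000 UMIs per spot (-0.48), the inflammatory one on the right side (0.035), and the collagen one with equal weight of spots (0.44). A minimum of 500 UMIs left 1 gene in the lipid barrier (0.31) and inflammatory lists (0.87, and 1.15 over kept spots). The cause was not tested. No paired analysis was possible because each group is 1 section. Depth limits the control epidermis most, where 0 UMIs allow up to 17.8 CPM.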
